A study of Arabidopsis thaliana with 18 samples.

Results

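TAS3a and TAS3b are the Arabidopsis loci whose transcripts give rise to the trans-acting siRNAs (tasiRNAs) that act on AUXIN RESPONSE FACTOR genes, and their small RNAs are described here position by position. All rows of the deposited tasiRNA table whose name begins with TAS3a or TAS3b were taken, on both strands and whatever their level, which gave 1365 of the 6242 listed positions. TAS3a holds 884 of them (468 forward and 416 reverse) and TAS3b 481 (252 forward and 229 reverse). A position was taken as the coordinate on the annotated TAS gene, introns included, at which the leftmost base of a read maps. Of the TAS3a positions, 108 had no read in any library and 104 had 100 reads or more. At TAS3b, 135 had no read and 6 had 100 or more. TAS3a gave 140550 reads (93175 forward and 47375 reverse) and TAS3b 3798, so that the 2 loci are treated apart throughout.

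Small RNAs were sequenced from 7-day-old whole seedlings of Col-0, a wild-type laboratory accession. Seedlings had been heated at 37°C for 1 h (HS), heated and then returned to 22°C for 2 h (recovery), or left untreated (control), and each state was sampled as small RNA bound to ARGONAUTE1 (AGO1-IP, from 1 g of seedlings with an antibody against AGO1) and as total RNA. With 3 libraries in each of the 6 groups, 18 libraries were compared. No mock immunoprecipitation was used here, and in whole seedlings fewer cells of a type and less small RNA per cell cannot be told apart. The AGO1-IP libraries held 95913 to 383351 TAS reads and the total RNA libraries 26411 to 118733, so that AGO1-IP values rest on more reads. AGO1-IP libraries gave 112633 of the TAS3a reads, against 27917 from total RNA. At TAS3b the order was the opposite, with 1251 reads from AGO1-IP libraries and 2547 from total RNA.

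In this pathway the non-coding TAS3 transcript is bound at 2 sites by miR390, which is loaded in AGO7 rather than AGO1. AGO7 cuts the transcript at the 3′ site, while the 5′ site is bound without being cut. RDR6 and SGS3 turn the cut fragment into double-stranded RNA, which DCL4 dices into 21-nt duplexes in steps that count from the cut. A strand of a duplex is then loaded into an ARGONAUTE, and AGO1 is known to favour small RNAs with a 5′ U. The siRNAs called tasiARF direct the cleavage of ARF2, ARF3 and ARF4 mRNAs, and through them set leaf polarity, phase change and lateral root growth.

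The sequences of trigger and sites are shown first because the cut at the 3′ site sets the positions from which all other distances are counted. They were read from the reference genome (RefSeq, TAIR10.1), T stands for U, and all are given 5′ to 3′. TAS3a (AT3G17185) lies at chr3:5861491-5862437 and TAS3b (AT5G49615) at chr5:20134200-20134786, both on the plus strand. In the guide, capitals mark the seed (bases 2 to 8). In the 4 sites, capitals mark bases that form Watson-Crick pairs with the guide.
miR390a-5p (chr2:16061971-16061991, plus strand): aAGCTCAGgagggatagcgcc
TAS3a 5′ site (chr3:5862099-5862119): GGtGtTATCCtatCTGAGCTT
TAS3a 3′ site (chr3:5862343-5862363): ttgtCTATCCCTCCTGAGCTa
TAS3b 5′ site (chr5:20134458-20134478): GaCGCTATCttaCCTGAGCTT
TAS3b 3′ site (chr5:20134674-20134694): ttatgTATCCCTCtTGAGCTg
The mature miR390b-5p from chr5:23636961-23636981 has the same 21 bases. At each 5′ site, 3 of the bases that did not form a Watson-Crick pair face the middle of the guide, and the others lie near the end that faces its 3′ end. At the 3′ sites all middle bases paired and the lower-case letters were mainly at the end that faces the 3′ end of the guide. The 5′ site of TAS3a spans positions 609 to 629 and its 3′ site 853 to 873, with the cut just before position 864. At TAS3b the sites span 259 to 279 and 475 to 495, with the cut before 486.

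The small RNAs on which the results turn are shown next, each as the 21-nt window that begins at its listed position, with the 5′ base in capitals. Reverse windows are printed as the reverse strand reads.
TAS3a 716 forward, tasiARF (chr3:5862206-5862226): Ttcttgaccttgtaagacccc
TAS3a 695 forward, tasiARF (chr3:5862185-5862205): Ttcttgaccttgtaaggcctt
TAS3b 313 forward, tasiARF (chr5:20134512-20134532): Ttttcttgaccttgtaagacc
TAS3a 843 forward (chr3:5862333-5862353): Ttctcctaccttgtctatccc
TAS3a 653 forward (chr3:5862143-5862163): Ttattgtgttttatctagatg
TAS3a 809 forward (chr3:5862299-5862319): Tatctatctctacctctaatt
TAS3a 807 reverse (chr3:5862297-5862317): Ttagaggtagagatagatatc
TAS3a 820 reverse (chr3:5862310-5862330): Tgactcgaacgaattagaggt
TAS3a 782 reverse (chr3:5862272-5862292): Ctatattgagaagagatagaa
TAS3b 337 forward (chr5:20134536-20134556): Tctctactcttttctgtcttc
TAS3b 221 reverse (chr5:20134420-20134440): Gtagaacaagtcttgatcatc
Position 716 pairs with the following stretch of coding sequence, present in ARF2 (AT5G62000, chr5:24913261-24913281, plus strand), ARF3 (AT2G33860, chr2:14325942-14325962, minus strand) and ARF4 (AT5G60450, chr5:24309508-24309528, minus strand), with capitals at Watson-Crick pairs.
ARF site of tasiARF: aGGGTCTTgCAAGGTCAAGAA
Of its 21 bases, 19 paired, 1 was a G:U pair and 1 was a mismatch, and ARF3 and ARF4 each hold a further copy with 18 paired bases. The TAS3b 313 window also occurs in TAS3a, at position 714, so its reads cannot be assigned to either locus with certainty. In all, 20 rows of the 2 loci have a 21-nt window with more than 1 copy in the genome.

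Reads of TAS3a came almost wholly from the stretch bounded by the miR390 sites. These positions held 98.0 ± 1.07% of the locus reads in AGO1-IP and 94.8 ± 1.47% in total RNA (mean ± SD, n = 9 libraries each). The 10 positions fullest over all libraries, most of whose reads are AGO1-IP reads, held 66.4 ± 4.28% in AGO1-IP and 29.8 ± 8.21% in total RNA. The fullest of all was position 843, with 28374 reads, whose window ends at the miR390 cut. The tasiARF at 716 followed 653 (16972 reads) with 11782 reads, and position 695 had 365.

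**Figure D1:**
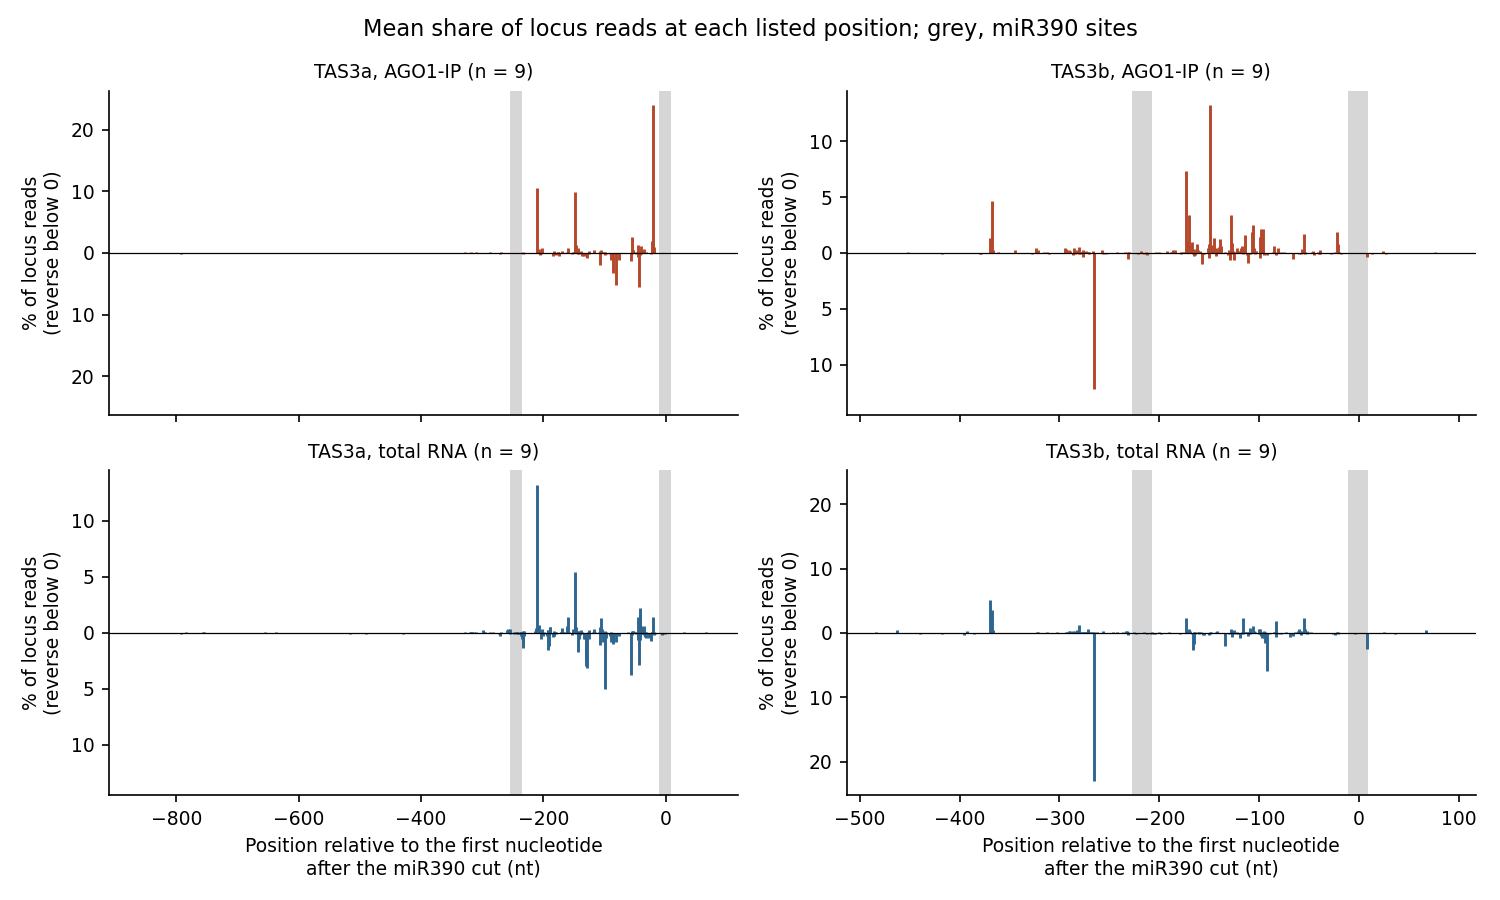
Reads at each position of TAS3a and TAS3b, as percent of locus reads averaged over the 9 libraries of AGO1-IP and of total RNA, against the distance in nt from the first base after the miR390 cut. Forward positions are drawn upwards and reverse positions downwards, grey bands are the miR390 sites, and each panel has its own vertical scale. In the TAS3a AGO1-IP panel the tallest line is position 843, 21 nt before the cut, which is a minor line in total RNA.

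AGO1-IP was compared with total RNA to ask which TAS3 siRNAs were bound by AGO1. A fit over all 18 libraries (edgeR, quasi-likelihood, adjusted over 852 positions with enough reads) called 663 positions different (77.8%), with 35.7% of those tested higher in AGO1-IP and 42.1% lower. Among 109 tested TAS3a positions, 45 were higher, 44 lower and 20 did not pass, with a median log2 fold change of 0.36 beside -0.27 over all positions. At TAS3b, 1 of 15 was higher, 13 were lower and 1 did not pass, with a median of -4.36. Only positions with enough reads in some group could be tested, 109 of 884 at TAS3a and 15 of 481 at TAS3b. Of the TAS3b ones, 5 had no AGO1-IP read, and 394 reverse had 2, 320 reverse 1 and 370 forward 4. These entered only through total RNA, where they were higher. At TAS3a, 689 reverse and 720 forward, with 12 and 21 reads in total RNA, entered only through AGO1-IP. Such positions could hardly pass in the other direction. The counts and medians of both loci, by first base too, therefore only describe the tested positions. The scale is relative, and all fitted values move with it. The median of all positions was -0.45 with DESeq2's size factors, -0.70 with miRNA library sizes and -1.20 with plain TAS reads (no TMM factors, added after seeing the data). On that last scale 179 of all positions were higher and 474 lower, and 29 TAS3a positions were higher and 49 lower (median -0.62), and of the 45 higher ones 42 kept a positive value and 29 passed. The CPM printed here are on the plain scale.

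Position 843, the fullest siRNA of TAS3a, was a minor species of total RNA. In CPM (read counts scaled to all TAS reads of the library) it had 5990, 13169 and 17635 in AGO1-IP (lowest, median and highest of 9 libraries), against 203, 465 and 1249 in total RNA. The fractions did not overlap, and the log2 fold change was 5.58 ± 0.34 (SE, adjusted p = 3.49e-13). It made up 24.0 ± 5.04% of TAS3a reads in AGO1-IP and 1.38 ± 0.71% in total RNA. Position 842, which starts 1 nt upstream and also has a 5′ U, was higher in AGO1-IP by 6.45 ± 0.45 on the log2 scale, with 2255 reads in AGO1-IP and 24 in total RNA.

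The tasiARF at 716 was higher in AGO1-IP in every library. Its levels were 3125, 5403 and 6517 CPM in AGO1-IP (lowest, median, highest), against 1575, 2257 and 3073 in total RNA. The ranges did not overlap, although the lowest AGO1-IP library was close to the highest total RNA library. The log2 fold change was 2.19 ± 0.22 (adjusted p = 1.95e-09). Without TMM factors it was 1.24 (adjusted p = 6.21e-06). The related tasiARF at 695 averaged 131 CPM in AGO1-IP and 181 CPM in total RNA, and its direction turned with the scale, with 0.60 ± 0.37 in the fit (adjusted p = 0.138) and -0.31 without TMM factors (adjusted p = 0.474). The TAS3b tasiARF at 313 likewise averaged 48.1 CPM in AGO1-IP and 60.5 CPM in total RNA, with 0.39 ± 0.44 in the fit (adjusted p = 0.426) and -0.52 without TMM factors (adjusted p = 0.295).

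Other full positions differed less evenly. Position 653 was the leading siRNA in total RNA, at 13.2 ± 7.44% of TAS3a reads there and 10.6 ± 2.70% in AGO1-IP. Its log2 fold change of 1.05 ± 0.39 passed (adjusted p = 0.0209), but without TMM factors it was 0.13 (adjusted p = 0.736), and its levels overlapped widely, with 2231 to 9355 CPM in AGO1-IP and 1253 to 9385 in total RNA. Position 820 reverse was higher by 2.30 ± 0.24, with 1619, 2805 and 4265 CPM in AGO1-IP, against 818, 1095 and 2082 in total RNA, where only the highest library overlapped with AGO1-IP. The reverse siRNA at 782 begins with C and was nonetheless higher by 4.07 on the log2 scale, at 5.28 ± 0.957% of TAS3a reads in AGO1-IP and 0.840 ± 0.507% in total RNA.

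**Figure D2:**
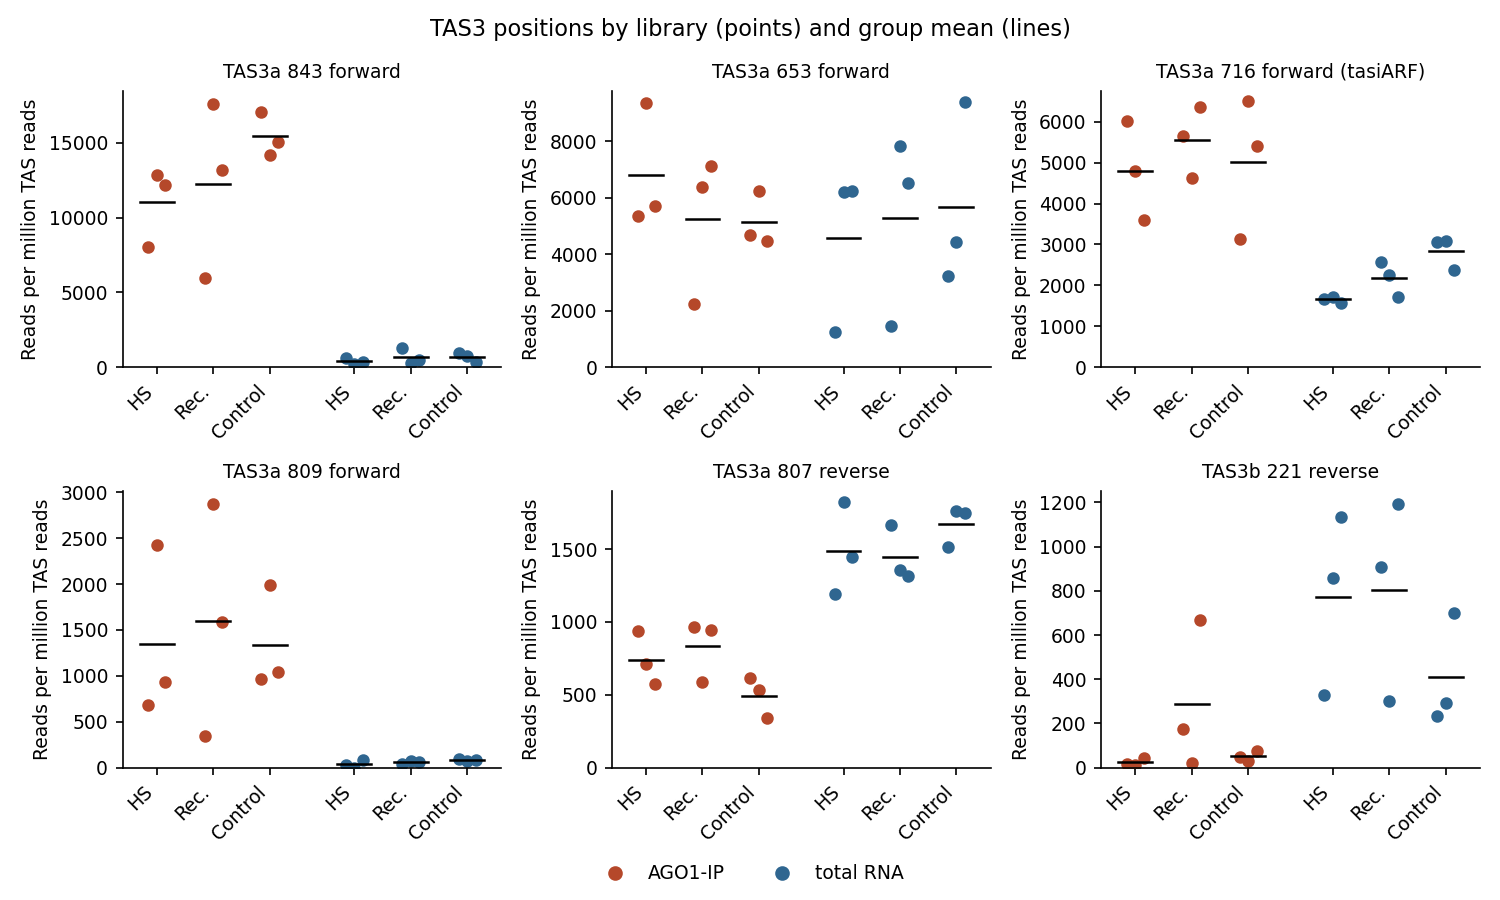
CPM of TAS reads of 6 positions in each library (linear axes from 0, each panel with its own scale), with HS, recovery and control side by side for AGO1-IP and then for total RNA. Points are libraries and short lines are group means (n = 3). Positions 843 and 809 stand apart between the fractions, 807 reverse is lower in every AGO1-IP library than in every total RNA library, and 716 in total RNA is lower in all HS libraries than in all control libraries.

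The first base of the siRNA moved with the fraction. Of 49 tested TAS3a positions whose window begins with U, 33 were higher in AGO1-IP and 5 lower, with a median log2 fold change of 1.53. Of 34 that begin with A, 4 were higher and 25 lower, with a median of -2.04. The 15 that begin with G had 2 higher and 11 lower (median -1.96), and the 11 that begin with C had 6 higher and 3 lower (median 0.87). TAS1a, TAS1b, TAS1c, TAS2 and TAS4 together gave medians of 1.35 over 292 positions for U, -1.95 over 254 for A, -2.59 over 88 for G and -0.14 over 94 for C, so at TAS3a as at these loci the median was above 0 for U and below 0 for A and G. Without TMM factors the TAS3a medians were 0.61 for U, -2.95 for A, -2.93 for G and -0.05 for C. At TAS3b 1 of the 5 tested U positions was higher and 3 were lower (median -2.55), with all 5 A positions lower (median -5.65), all 4 G positions lower (median -4.06) and its 1 C position lower. Positions that begin with U held 81.5 ± 2.19% of TAS3a reads in AGO1-IP (76.9 to 83.8) and 48.9 ± 7.85% in total RNA (36.5 to 57.2), and those that begin with A held 5.92 ± 1.87% in AGO1-IP and 31.9 ± 7.49% in total RNA.

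Exceptions ran in both directions. The 5 positions with a 5′ U that were lower in AGO1-IP were 675 forward (log2 fold change -5.25), 830 reverse (-4.01), 672 forward (-3.79), 631 reverse (-2.77) and 839 reverse (-1.30). Among those with another first base, 787 reverse (C, 3.34), 810 forward (A, 2.94) and 684 reverse (A, 2.63) were higher. These positions, and 765 and 735 below, were named after their values had been seen. The reverse siRNA at 765 begins with A and was a leading species of total RNA only, at 0.363 ± 0.274% of TAS3a reads in AGO1-IP and 4.99 ± 2.84% in total RNA (log2 fold change -2.61 ± 0.30, adjusted p = 2.67e-08). Position 735 reverse, also with a 5′ A, was at 0.825% in AGO1-IP and 3.18% in total RNA.

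**Figure D3:**
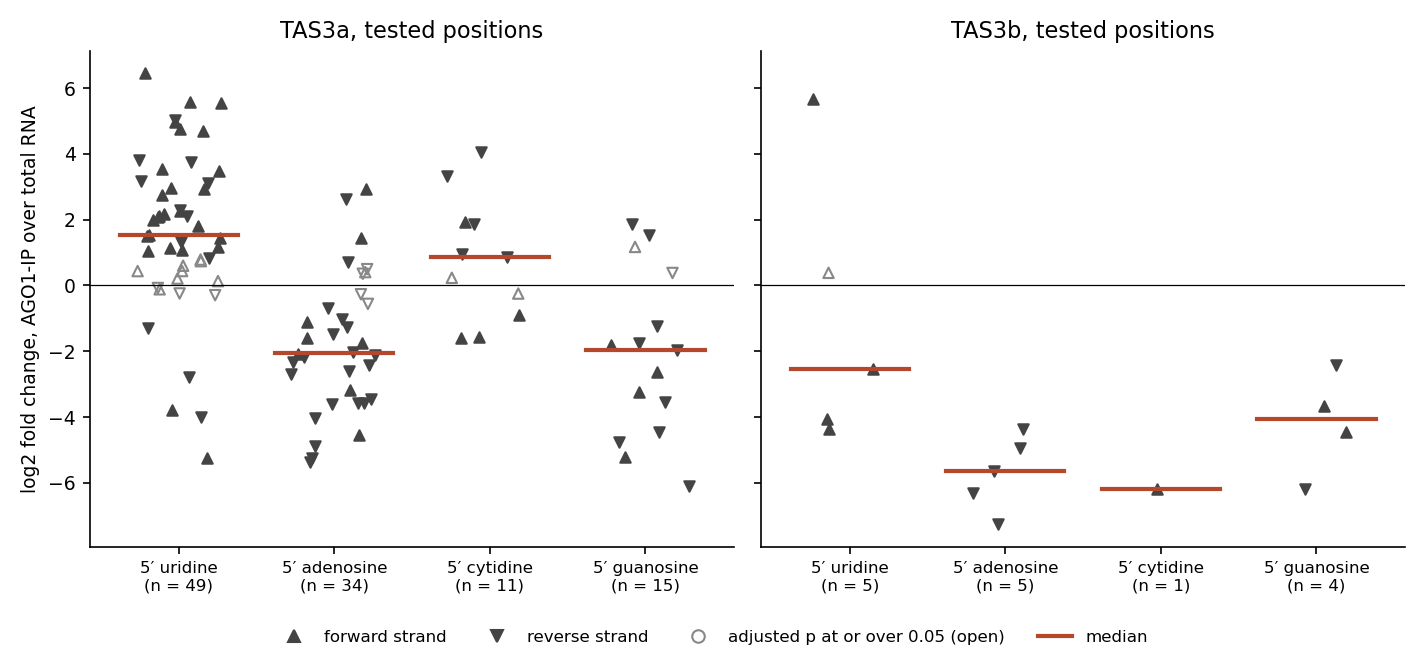
The log2 fold change of AGO1-IP over total RNA for each tested position of TAS3a and TAS3b, by the first base of its 21-nt window. Triangles point up for forward and down for reverse positions, filled ones passed at an adjusted p of 0.05, and red lines are medians. For TAS3a the medians are 1.53 for U, -2.04 for A, 0.87 for C and -1.96 for G.

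DCL4 products are duplexes in which each 3′ end overhangs by 2 nt, so that a forward siRNA at a position pairs with the reverse siRNA listed 2 nt lower, and the strands of a duplex can be compared with each other. Position 809 forward and 807 reverse form such a pair and both begin with U. The forward strand had 3290 reads in AGO1-IP and 44 in total RNA, while the reverse strand had 1396 in AGO1-IP and 1093 in total RNA. Forward 809 was higher in AGO1-IP by 5.56 ± 0.53 on the log2 scale, whereas 807 reverse differed by -0.24 ± 0.22 (adjusted p = 0.317), close to the median of all positions. Without TMM factors the values were 4.59 for 809 forward and -1.19 for 807 reverse (adjusted p = 2.51e-05). In CPM 807 reverse had 338, 613 and 962 in AGO1-IP (lowest, median, highest), against 1193, 1517 and 1824 in total RNA, with no overlap. In percent of TAS3a reads, 807 reverse was at 1.37 ± 0.643 in AGO1-IP and 3.78 ± 0.663 in total RNA.

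In other duplexes the ratio of the strands differed between the fractions too, as counts without a test. For 820 reverse (U) and 822 forward (C), AGO1-IP held 6164 and 306 reads while total RNA held 758 and 665. For 756 reverse and 758 forward, which both begin with U, AGO1-IP held 2241 and 578 reads and total RNA 354 and 414. The partner of 843, at 841 reverse, was scarce on both sides, with 3 reads in AGO1-IP and 5 in total RNA. The duplex of 673 reverse (A) and 675 forward (U) was nearly missing from AGO1-IP, with 17 and 4 reads, against 296 and 89 in total RNA.

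Beside 842, 843 and 809, the largest fitted rises of TAS3a were 689 reverse (5.02 ± 0.48) and 720 forward (4.98 ± 0.48), both with a 5′ U. They had 602 and 819 reads in AGO1-IP against 12 and 21 in total RNA, and entered the test only through AGO1-IP. Among the largest falls was 837 reverse (G), with a fitted value of -6.10 ± 0.61. For positions with few reads in AGO1-IP the pooled ratio per TAS read is given too, which uses no TMM factors and comes out larger than the fitted fall. At 837 reverse it was 205-fold lower, from 2 reads in AGO1-IP and 140 in total RNA (95% counting interval 55.7 to 1709). Position 829 reverse (A, fitted -5.24) had 1 read in AGO1-IP and 47 in total RNA (138-fold lower, 23.5 to 5548), and 566 forward (G, fitted -5.23) had 2 in AGO1-IP and 75 in total RNA (110-fold lower, 29.3 to 923). The reverse siRNA at 673 was lower by 5.38 on the log2 scale (SE 0.46), present in every total RNA library but in few AGO1-IP reads.

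At TAS3b the 1 tested position that passed as higher in AGO1-IP was 337 forward, a 5′ U siRNA (fitted 5.67 ± 0.90, adjusted p = 7.80e-06). It had 165 reads in AGO1-IP (12, 41 and 8 in HS, 0, 27 and 9 in recovery, 32, 33 and 3 in control) and 3 in total RNA, an 18.8-fold higher pooled ratio (95% counting interval 6.32 to 92.0). It was read in 8 of 9 AGO1-IP libraries. Position 358 forward, too low to be tested and named after its values had been seen, also took a larger share in AGO1-IP, with 42 reads in AGO1-IP and 9 in total RNA (3.38% and 0.531% of TAS3b reads in AGO1-IP and in total RNA). The reverse siRNA at 394 (A) had 2 reads in AGO1-IP and 183 in total RNA, 268-fold lower (73.1 to 2228) by the pooled ratio and -7.25 in the fit. Positions 403 forward, 352 reverse, 392 reverse and 377 forward had no read in AGO1-IP and 60, 58, 41 and 26 in total RNA, which with a floor of 3 reads over the fraction puts them at least 58.5-fold, 56.6-fold, 40.0-fold and 25.4-fold lower. Position 320 reverse (G) had 1 read in AGO1-IP and 77 in total RNA, 225-fold lower by the pooled ratio and -6.18 in the fit.

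These low TAS3b positions were not spread over the total RNA libraries. Positions 394, 392 and 352 reverse, 403 and 377 had 0 reads in replicate 3 of HS, of recovery and of control alike. The fullest TAS3b position, 221 reverse, lies upstream of the 5′ miR390 site. Its duplex partner, 223 forward, had 0 reads in AGO1-IP and 1 in total RNA. Position 221 reverse had its highest total RNA levels in the same replicates 3, at 1135 CPM in HS, 1193 in recovery and 700 in control. In AGO1-IP it had 14.8, 13.2 and 41.7 CPM in HS, 173, 21.6 and 670 in recovery and 49.6, 27.5 and 72.9 in control, and it was lower than in total RNA by 2.42 on the log2 scale (SE 0.49, adjusted p = 0.000183). Without replicate 1 of the total RNA control, the call for 403 was lost (adjusted p = 0.9998).

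TAS3b reads were also less bound to the stretch between the miR390 sites. That stretch held 72.9 ± 26.4% of its reads in AGO1-IP and 53.3 ± 24.7% in total RNA. In AGO1-IP it was 26.0% and 27.5% in recovery replicates 1 and 3 and 80.1 to 94.3% in the other 7 libraries. In total RNA it was 16.2% in HS, 17.2% in recovery and 30.6% in control for replicate 3, and 61.1 to 77.9% in the other 6. Positions 117 and 119 forward, which lie in an annotated intron of TAS3b, were read in AGO1-IP mainly in recovery replicate 1, with 76 of 80 AGO1-IP reads at 119.

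The strands and the register of the 2 loci were compared as shares of locus reads, by exact two-sided permutation tests stratified by treatment (8000 arrangements, smallest possible p 0.00025, adjusted over 42 tests). The reverse strand held 30.4 ± 2.54% of TAS3a reads in AGO1-IP (26.5 to 34.4) and 51.6 ± 8.72% in total RNA (44.2 to 65.7), and the fractions did not overlap (difference -21.3 percentage points, adjusted p = 0.00525). Without position 843 the shares were 40.0 ± 3.12% in AGO1-IP and 52.4 ± 9.05% in total RNA (difference -12.4, adjusted p = 0.0105). At TAS3b they were 23.0% in AGO1-IP and 56.0% in total RNA (difference -33.0, adjusted p = 0.014). There single positions weighed heavily in single AGO1-IP libraries, with up to 52.7% of TAS3b reads at 221 reverse and up to 39.6% at 119 forward. With a library left out the TAS3b difference ran from -38.0 to -31.5. Single positions of TAS3a differed by strand in the same direction, with 27 of 54 forward positions higher and 15 lower (median 1.06) and 18 of 55 reverse positions higher and 29 lower (median -1.01). Among positions with a 5′ U the medians were 1.67 over 34 forward and 1.33 over 15 reverse. With another first base they were -1.58 over 20 forward and -1.85 over 40 reverse, so within a class the strands differed less. Over the tested positions of all loci, 164 of 436 forward were higher and 192 lower (median -0.24). Of 416 reverse, 140 were higher and 167 lower (median -0.30).

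The share of TAS3a reads in the 21-nt steps counted from the miR390 cut was 32.7 ± 5.76% in AGO1-IP and 12.7 ± 2.07% in total RNA (difference 20.0 percentage points, adjusted p = 0.00525). The difference was lost without position 843 (left out after seeing the data), when the shares were 11.6 ± 2.63% in AGO1-IP and 11.5 ± 1.71% in total RNA (difference 0.0865, adjusted p = 1). The tasiARF at 716 and position 653 start 1 nt before a step, and the steps shifted by 1 nt held 30.4% of TAS3a reads in AGO1-IP and 31.7% in total RNA. Position 820 reverse lies exactly on a step. The share at TAS3b was 4.22% in AGO1-IP and 1.54% in total RNA, a difference of 2.68 percentage points that did not pass (adjusted p = 0.0998).

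**Figure D4:**
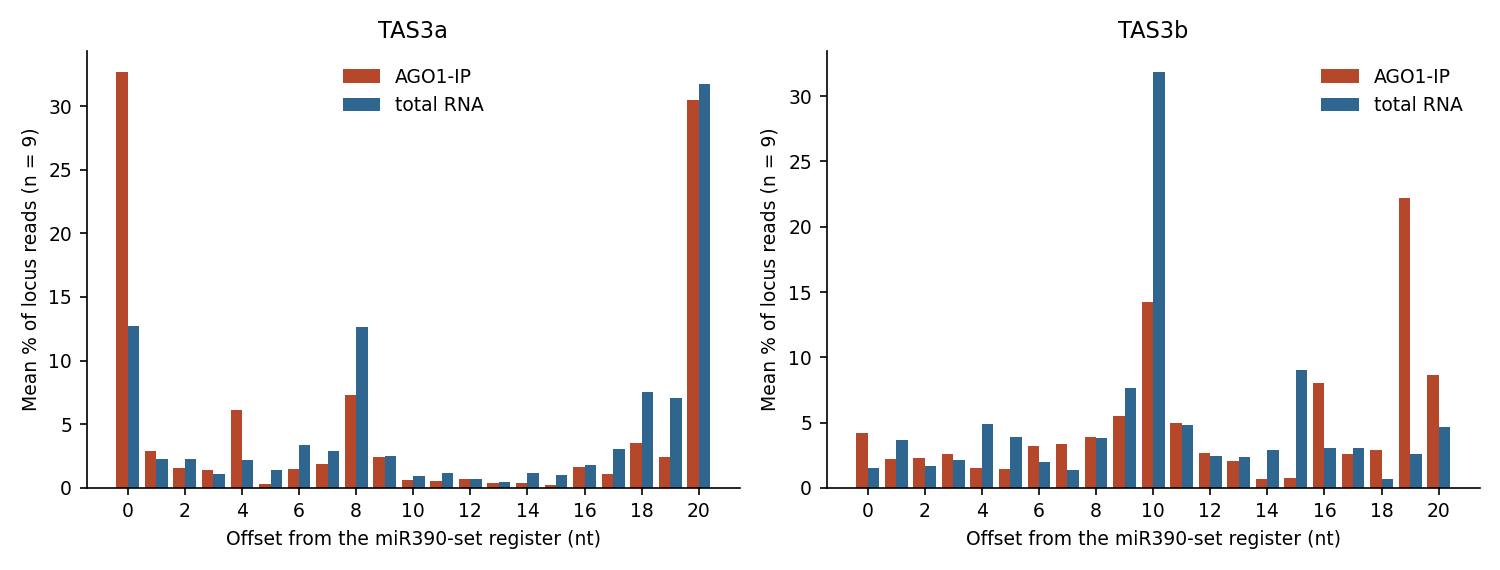
Percent of locus reads (mean of 9 libraries of AGO1-IP and of total RNA) at each of the 21 possible offsets from the miR390 cut, for TAS3a and TAS3b, with reverse positions shifted by 2 nt. Offset 0 is the register set by the cut and holds 32.7% of TAS3a reads in AGO1-IP and 12.7% in total RNA, while offset 20 holds 30.4% in AGO1-IP and 31.7% in total RNA. At TAS3b offset 19 holds 22.2% in AGO1-IP and 2.61% in total RNA, and position 337 forward alone gives 13.2% in AGO1-IP. Offset 10, the fullest of TAS3b and that of 221 reverse, holds 14.2% in AGO1-IP and 31.9% in total RNA.

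The tasiARF positions (716 and 695 at TAS3a, 313 at TAS3b) together held 10.2 ± 3.17% of TAS3a reads in AGO1-IP and 5.84 ± 1.38% in total RNA (difference 4.36 percentage points, p = 0.002 by the exact permutation test, adjusted p = 0.021). Leaving out any of the 3 total RNA HS libraries gave an adjusted p of 0.0504 with differences of 4.13 to 4.28. Without position 843 (left out after seeing the data) the difference was 7.35 (adjusted p = 0.007). At TAS3b the shares were 7.32% in AGO1-IP and 2.26% in total RNA, and the difference of 5.07 percentage points did not pass (adjusted p = 0.0504). With all windows that pair with the 3 ARF genes counted, overlapping ones too (added after seeing the data), the differences were 4.52 at TAS3a (adjusted p = 0.0367) and 9.77 at TAS3b (adjusted p = 0.0273).

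**Figure D5:**
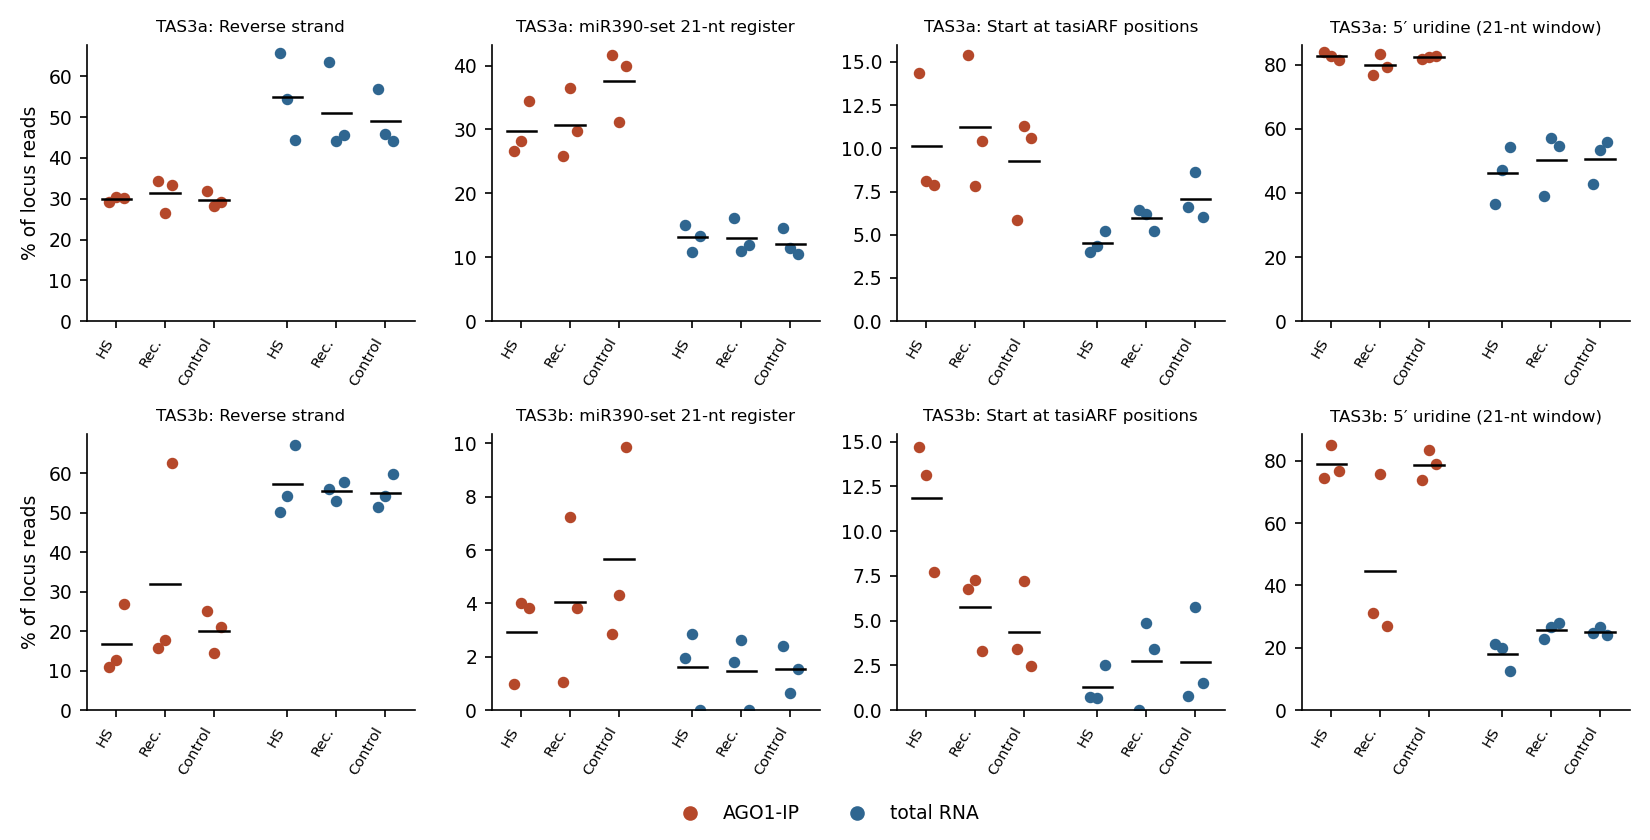
Shares of TAS3a and TAS3b reads in each library, in percent, with HS, recovery and control side by side for AGO1-IP and for total RNA. Points are libraries and lines group means (n = 3). The reverse share of TAS3a lies between 26.5 and 34.4% in AGO1-IP and between 44.2 and 65.7% in total RNA.

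The sums of the loci differed in direction with the scale. TAS3a made up 5.31 ± 0.90% of TAS reads in AGO1-IP (3.69 to 6.31) and 4.11 ± 0.56% in total RNA (3.14 to 4.81), but 3409 ± 999 CPM in AGO1-IP and 4957 ± 1279 CPM in total RNA when scaled to miRNA reads. In a fit of the loci beside the miRNAs, where 79.6% of 275 rows passed (41.5% higher and 38.2% lower), TAS3a was higher in AGO1-IP by 1.05 ± 0.25 on the log2 scale (adjusted p = 0.00064), against 0.33 with DESeq2's size factors (adjusted p = 0.181). That change of scaling moved the median of all rows from -0.04 to -0.69, and relative to the median the values were 1.09 and 1.03. Without TMM factors TAS3a stood at -0.46 (adjusted p = 0.0568), and 1.02 relative to a median of -1.48. TAS3b was lower in AGO1-IP on both scales, at 0.0732 ± 0.0493% of TAS reads in AGO1-IP and 0.505 ± 0.405% in total RNA, with a log2 fold change of -2.10 ± 0.31 (adjusted p = 1.82e-06). In the same fit TAS2 stood at 1.58, TAS4 at 1.01, TAS1c at 0.18, TAS1a at -0.01 and TAS1b at -0.67.

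The effect of HS on the TAS3 siRNAs was asked within each fraction. In total RNA no TAS3 position passed after HS, where 0% of 646 tested positions did (edgeR 0 and DESeq2 0, with 63 at an unadjusted p under 0.05). Of 73 tested TAS3a positions, 26 were higher and 47 lower (median -0.22, 3 at an unadjusted p under 0.05), and all 12 tested TAS3b positions were higher (median 1.03, 0 at an unadjusted p under 0.05), beside a median of 0.02 over all positions. The 12 are positions of the same locus in the same libraries, so their shared direction restates the locus sum and is not separate evidence. TAS3b made up 1.22, 0.707 and 0.202% of TAS reads after HS, 1.04, 0.225 and 0.243% after recovery and 0.581, 0.159 and 0.167% in control, with replicate 1 highest in each group and HS and control overlapping. Its locus sum differed by 1.57 ± 0.61 after HS and did not pass (unadjusted p = 0.0273, adjusted p = 0.326, with 0% of 241 rows called). TAS3a differed by 0.16 ± 0.35 on the log2 scale and did not pass.

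The tasiARF at 716 was the TAS3a siRNA with the smallest p for HS in total RNA. It had 1671, 1717 and 1575 CPM after HS, 2575, 2257 and 1706 after recovery and 3057, 3073 and 2380 in control. All HS libraries lay below all control libraries, and recovery overlapped both. Since the position was picked by its p, this order is no further evidence. The log2 fold change of -0.82 ± 0.28 did not pass the adjusted test (unadjusted p = 0.0137, adjusted p = 0.489). With the miRNA reads as library size the difference was -0.38. Position 717 forward, which starts 1 nt later and lies exactly on a step from the cut, had 4, 6 and 9 reads after HS, 10, 15 and 21 after recovery and 21, 14 and 23 in control, again with HS below control. Its log2 fold change of -1.54 ± 0.60 did not pass either (unadjusted p = 0.0241, adjusted p = 0.489). The share of TAS3a reads at tasiARF positions was 4.51 ± 0.633% after HS, 5.95 ± 0.629% after recovery and 7.07 ± 1.36% in control, and HS against control gave p = 0.1 by the exact permutation test, the smallest that 3 against 3 libraries allow (adjusted p = 0.42). This share rests mainly on 716, with 1547 reads in total RNA against 117 at 695, so it largely repeats the values at 716.

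In AGO1-IP the same siRNA showed no such order. It had 6008, 4792 and 3597 CPM after HS, 5654, 4618 and 6365 after recovery and 3125, 6517 and 5403 in control, with all groups overlapping and a difference of -0.02 ± 0.38 for HS against control. The interaction, which asks whether HS changed AGO1-IP and total RNA by different factors, was 0.55 ± 0.51 (adjusted p = 0.963). For position 843 the libraries of AGO1-IP had 8045, 12867 and 12157 CPM after HS, 5990, 17635 and 13169 after recovery and 17073, 14160 and 15081 in control. All HS values were below all control values, and the fitted difference of -0.44 ± 0.38 did not pass.

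A single TAS3 position passed within a fraction. In AGO1-IP after HS, 0.134% of 749 tested positions passed, and the 1 that did was 831 forward of TAS3a, among 102 tested there and 3 at TAS3b. This siRNA, with a 5′ G, had 1, 1 and 0 reads after HS, 11, 10 and 6 after recovery and 27, 27 and 10 in control. HS did not overlap with recovery or control. The log2 fold change was -4.64 ± 0.88 (adjusted p = 0.00859), and the pooled ratio was 30.2-fold lower with a 95% counting interval of 8.03 to 255. The call was lost without HS replicate 1 (adjusted p = 0.0765), HS replicate 2 (0.187), control replicate 1 (0.0531) or control replicate 2 (0.106). In total RNA the position had 0 to 2 reads after HS, 0 to 2 after recovery and 2 to 7 in control.

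Recovery gave no call at TAS3 in the edgeR test. Against control in total RNA, 0% of 646 positions passed (4 at an unadjusted p under 0.05, DESeq2 2), and against HS likewise 0% (19 and DESeq2 13). In AGO1-IP, 0% of 749 passed against control (24 and DESeq2 25) and 0% against HS (21 and DESeq2 20). The largest TAS3 difference of recovery against HS in AGO1-IP was at 831 forward, by 4.00 ± 0.92 (adjusted p = 0.118), and the next at TAS3b 221 reverse, by 3.58 ± 0.92 (adjusted p = 0.283), which DESeq2 called (adjusted p = 0.0205) and which edgeR called without recovery replicate 2 (adjusted p = 0.00093). At 221 reverse, reads numbered 18, 6 and 96 after recovery and 4, 5 and 4 after HS, so that replicate 3 held most of them. The interactions called 0% of 852 positions for HS (30 at an unadjusted p under 0.05, DESeq2 27) and 0% for recovery (21 and DESeq2 17).

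Locus sums in AGO1-IP also did not pass. TAS3a differed by 0.03 ± 0.44 after HS and by -0.31 after recovery against control, and TAS3b by -0.02 ± 0.45 and 0.88 ± 0.45 (adjusted p = 0.912 after recovery), where 1.8% and 0.45% of 222 rows were called. TAS3b made up 0.185, 0.0547 and 0.127% of TAS reads in AGO1-IP after recovery and 0.0459, 0.0547 and 0.0537% in control. Its loading change by HS was -1.70 ± 0.74 (unadjusted p = 0.0308, adjusted p = 0.651), beside -0.24 ± 0.61 for TAS3a, with 0.364% of 275 rows called.

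The trigger and the other small RNAs that act on ARF genes were read in the same libraries. miR390-5p (ath-miR390a-5p) stood at 1017 ± 243 CPM of miRNA reads in AGO1-IP and 5612 ± 3478 in total RNA. These CPM use no TMM factors and differ by more than the fitted value. In the TMM fit miR390-5p was lower in AGO1-IP by 0.91 on the log2 scale (SE 0.28, adjusted p = 0.00537), with a median of -0.04 over all rows. In total RNA it had 11211, 9739 and 1755 CPM after HS, 8142, 4113 and 2118 after recovery and 6836, 3772 and 2820 in control, with overlapping groups and a difference of 0.71 ± 0.64 for HS that did not pass. The 7 listed members of miR160, which targets ARF10, ARF16 and ARF17, and of miR167, which targets ARF6 and ARF8, were all higher in AGO1-IP, by 1.28 to 3.40 on the log2 scale (median 2.99). In that fit 41.5% of 275 rows were called higher. The values are on the TMM scale and would move with it, as the locus sums did. Rows of a family were close in value, with miR160a-5p, miR160b and miR160c-5p at 1.28 to 1.30. After HS none of the 7 passed in total RNA, where all had negative values (median -0.62, smallest adjusted p = 0.289), nor in AGO1-IP, where all had negative values too (median -0.44).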

How the data were processed

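The authors deposited raw read counts per miRNA and per TAS position and strand, without normalisation. Libraries were made from 100 ng RNA with 15 PCR cycles. Per the submitters' notes and the methods, reads of 18 to 34 nt were kept after Cutadapt 2.9 and mapped to TAIR10 with Bowtie2. The treatment of reads with several matches and of strand is not given in the sources used here. All sample columns were used (0 unused).

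Positions were tested with edgeR 4.0.16 in R 4.3.3 (quasi-likelihood F-test, TMM, filterByExpr, Benjamini-Hochberg at 0.05) over the whole TAS table, within fractions for treatments and over all 18 libraries for AGO1-IP against total RNA. The 7 locus sums were fitted beside 422 miRNAs. DESeq2 1.42.0 and its size factors, no filter, a replicate block, miRNA library sizes and leaving out each library were alternatives, and, added after seeing the data, no TMM factors. Shares were tested by permutation in Python 3.11.15. Printed CPM are plain ratios to all TAS (or miRNA) reads, without TMM factors. The first base of a reverse row assumes a 21-nt read, since read lengths are not in the table. Counting intervals cover counting error only. The fits were tested on simulated data.

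Named positions were tasiARF positions, the 10 fullest of TAS3a and 5 of TAS3b, and per comparison up to 5 calls in each direction or else the 2 smallest p-values. Members and lists were chosen with earlier results of these data known. tasiARF windows paired with ARF2, ARF3 and ARF4 at a score of at most 3 (a mismatch 1, G:U 0.5), and of windows that start less than 15 nt apart on a locus only the fullest was taken, which left out TAS3a 714 among others. Over positions, same-numbered libraries deviated together (correlation over 0.1 in all pairs) between recovery and the other states of total RNA and between recovery and HS of AGO1-IP. The block changed no TAS3 call there. Over miRNAs and loci the same held for recovery and control of AGO1-IP, and for AGO1-IP and total RNA of control. Per the paper, both kinds of library came from the same biological replicates, but the main fits and the permutation tests did not pair them.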

Additional observations from a re-analysis of the deposited data

How the results depend on the processing

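The limits are the few TAS3b reads (52 to 192 in AGO1-IP libraries, 157 to 593 in total RNA), the unknown counting of reads with several matches, and 3 libraries a group. Of 341 alternatives to the main results other than left-out libraries, 307 were counted as unchanged, and of 684 with a library left out 667 were. Unchanged meant the same direction and call, or a similar number of calls. For shares within a fraction it meant a shift smaller than the SD. Uncalled sums could shift by less than their SE, so that in both cases the sign could turn. The TAS3a sum after HS in total RNA, for example, ran from -0.16 to 0.39 with a library left out. No cause was tested.

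With the replicate block, HS in total RNA called 1 TAS3a position, 716 (log2 fold change -0.81, adjusted p = 0.0451), and the TAS3b locus (1.50, adjusted p = 0.0308). Over positions, libraries of replicates 1 and 3 deviated together between these groups (r = 0.54 and 0.63) and those of replicate 2 did not (r = -0.06), so a pairing was not shown and the block is an alternative only. The block changed no other call of a main result. DESeq2, and dropping the filter on low counts, each called 1 TAS3b position for recovery against HS in AGO1-IP. Without the filter the loading change by recovery called 1 TAS3b position, and AGO1-IP against total RNA called 175 TAS3a and 39 TAS3b positions, where more positions were tested. The TAS3a locus stood at 0.33 in AGO1-IP against total RNA with DESeq2's size factors in edgeR and 0.33 in DESeq2, short of the threshold in both, and reversed to -0.46 without TMM factors (adjusted p = 0.0568).

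The register share depended on its definition. With the fullest register the TAS3a difference between AGO1-IP and total RNA reversed to -1.29 percentage points, and without position 843 (chosen after seeing the data) it was 0.0865. For uncalled TAS3a contrasts, reads within 1 nt of the register gave -3.10 (HS against control) and 2.94 (recovery against HS) in total RNA and -1.92 (HS) in AGO1-IP. The fullest register gave -4.01 and 3.12 in total RNA, and 6.12 (HS), 1.55 (recovery against control) and -4.58 (recovery against HS) in AGO1-IP. The reverse share after HS in AGO1-IP was -3.15 without 843. At TAS3b the fullest register gave 3.68 (HS) and 3.78 (recovery) against control in total RNA, 14.6 and 19.1 for recovery against control and against HS in AGO1-IP, and -17.7 for AGO1-IP against total RNA. Reads within 1 nt gave -2.65 for recovery against control in total RNA, and -7.34 and -5.12 for recovery against control and against HS in AGO1-IP. The TAS3b reverse share in register reads differed by 14.3 after HS in AGO1-IP. With all windows that pair with the ARF genes, the TAS3b tasiARF share differed by 12.3 (HS against control), -1.36 (recovery against control) and -13.7 (recovery against HS) in AGO1-IP, and by 9.77 for AGO1-IP against total RNA, where it passed.

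With a library left out, calls for HS against control at TAS3a in AGO1-IP ranged from 0 to 1. Recovery calls in AGO1-IP ranged from 0 to 1 for TAS3b against control and for TAS3a and TAS3b against HS, with the 1 each time without recovery replicate 2. The TAS3b loading change by recovery ran from -0.41 to 0.94. For AGO1-IP against total RNA, the tasiARF share difference ran from 3.71 to 4.91 at TAS3a, and at TAS3b from 4.15 to 5.68, where it passed without AGO1-IP control replicate 1 or 3, AGO1-IP recovery replicate 3 or total RNA control replicate 2. The TAS3b register share ran from 1.98 to 3.09 and passed without replicate 1 of AGO1-IP HS or of AGO1-IP recovery.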
